A study of Rattus norvegicus with 10 samples.

Results

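Opn3 encodes opsin 3, also called encephalopsin or panopsin, and the array carried 1 probe set for it, 1393373_at, of 31042 probe sets other than controls. The probe set was found by 1 rule, a platform annotation that gives Opn3 as the only gene symbol, and the gene was singled out because its signal was higher after dehydration in these same arrays. The difference between the groups is therefore given as a description, without a test. One group held male Sprague Dawley rats dehydrated for 3 days, and the other held control rats of the same sex and strain, which the series title calls euhydrated. Both groups were 10 to 12 weeks old, and tissue of 5 animals was pooled for each array, so that 5 dehydrated and 5 control pools stood for 50 rats. Each pool came from its own animals, per the series design. The sample labels name the hypothalamic paraventricular nucleus, while the series design names the supraoptic nucleus in 1 place, and the sample labels were followed. RNA was amplified and hybridised to Affymetrix Rat Genome 230 2.0 arrays. Values are linear probe set signals, scaled by the authors to a common level.

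Opsins are receptors with 7 membrane-spanning helices that hold a vitamin A aldehyde and act on G proteins. Opn3 lies outside the visual opsins of rods and cones and was first described in brain, with later reports from skin, fat and other tissues. In human melanocytes it has been reported to lower cyclic AMP through inhibitory G proteins, and in mice it has been reported in hypothalamic cells together with the melanocortin receptor Mc4r and the potassium channel Kir7.1, the product of Kcnj13. The paraventricular nucleus holds the large neurons that release vasopressin (Avp) and oxytocin (Oxt) into the blood, and these vasopressin neurons respond when the body is short of water.

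The stretch of DNA before the start of Opn3 is shown because it is where control of the gene's transcription would begin. The rat RefSeq table places it at chr13:90152077-90152326 of GRCr8, on the minus strand, and the sequence runs 5′ to 3′ over the 250 bases before the gene's start. Capitals mark the GC box GGGCGG, a motif of promoters.
Opn3 promoter: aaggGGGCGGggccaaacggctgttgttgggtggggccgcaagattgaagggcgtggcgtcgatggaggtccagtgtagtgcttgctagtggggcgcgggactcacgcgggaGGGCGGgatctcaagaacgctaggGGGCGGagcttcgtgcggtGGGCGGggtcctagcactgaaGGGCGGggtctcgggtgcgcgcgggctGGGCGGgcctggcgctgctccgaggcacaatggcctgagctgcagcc
The stretch was rich in G and C, at 70.0%, against a median of 51.2% over 33469 rat promoter windows of the same length, and held 24 CG pairs against a median of 5. It held 6 GC boxes, all on the strand of the gene, the nearest 41 bases and the farthest 240 bases before the start. At least 1 GC box on either strand was found in 30.5% of windows, and 6 or more in 0.825%. None of the other motifs searched on both strands had a match in this window (0 each). These were TGACGTCA, the cyclic AMP response element, present in 1.59% of windows, its shorter form TGACG (18.2%), the AP-1 site TGANTCA (6.34%), the E-box CACGTG (5.59%), TATAAA (12.9%), CCAAT (34.0%), TGGAAA, the core of the element bound by the tonicity factor (19.7%), and AGAACA, a glucocorticoid receptor site (17.5%). The full response element holds the shorter form on both strands, so these searches overlap. Matches describe the letters only.

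The Opn3 gene shares this region with Chml, a gene of Rab protein prenylation that overlaps it in the RefSeq table and runs on the same strand. The start of Chml lies 21 bases before that of Opn3. Chml had no probe set with its name as only symbol, and it was not analysed here. On the other side the nearest protein-coding gene in that table is Kmo, which encodes kynurenine monooxygenase. Kmo signals were 26.9, 13.0, 16.4, 28.1 and 14.5 in dehydrated pools, against 18.8, 9.8, 10.4, 12.9 and 11.9 in control pools. They overlapped, and the mean lay below the signal filter of 24.1. In the fit without a filter Kmo differed by 0.48 ± 0.24 on the log2 scale (SE, limma adjusted p = 0.510). The part of the Opn3 transcript that the probe set reads was not given in the sources used here.

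Opn3 signals were 307, 304, 337, 251 and 250.2 in dehydrated replicates 1 to 5, against 108, 76.2, 88.9, 84.3 and 78.0 in control replicates 1 to 5. The groups did not overlap, and the lowest dehydrated pool was 2.31 times the highest control pool. The means were 290.0 ± 38.2 in dehydrated and 87.1 ± 12.8 in control pools (SD, n = 5 each), a ratio of 3.33. On the scale of log2(signal + 3.72) the difference was 1.69 ± 0.11 (SE of the fit). Each dehydrated pool lay between 2.87 and 3.87 times the control mean. In tissue of this kind, more cells with a transcript and more of the transcript per cell cannot be told apart.

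As background, every dehydrated value lay above every control value in 1.94% of the 18629 probe sets tested. A rise past an adjusted p of 0.05 in limma was found for 0.397%, and a change in either direction for 0.58%. Nothing is read from these shares for Opn3, since the gene was chosen on this contrast. A log2 difference of at least 1 upward was found for 0.0752%, or 14 probe sets. By size that of Opn3 took rank 3 among the tested probe sets, after Tnfaip6 (2.40 ± 0.13) and Caprin2 (1.84 ± 0.11) and before Giot1 (1.68 ± 0.16) and Ptges (1.45 ± 0.35). The ranges of 1 SE around these values overlapped for every pair among Caprin2, Opn3, Giot1 and Ptges, so the order among these genes is not settled. The difference ran from 1.64 to 1.77 with each array left out in turn. It was 1.23 at a pseudocount of 64, which shrinks differences of dim probe sets.

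**Figure D1:**
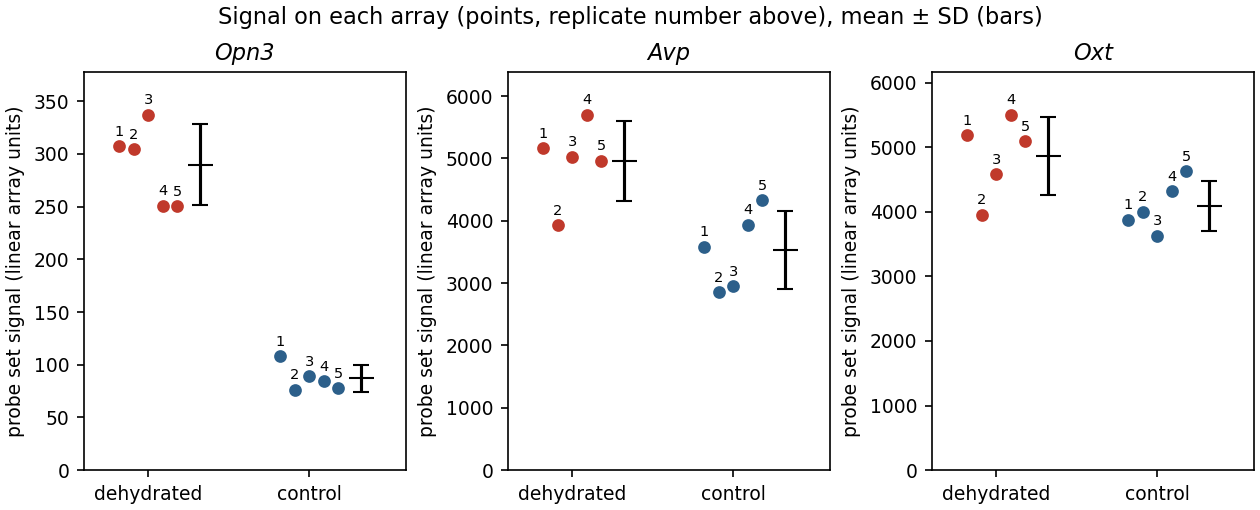
Probe set signal (linear array units) of Opn3, Avp and Oxt on each array, with dehydrated pools left of control pools. Points are arrays with their replicate number, and bars are the mean ± SD over 5 pools. The Opn3 groups are apart, at 250.2 to 337 in dehydrated and 76.2 to 108 in control pools, while the Avp and Oxt groups overlap.

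The spread of Opn3 within a group was ordinary for the array. The coefficient of variation of its signals was 13.2% in dehydrated and 14.7% in control pools. The SD of log2 values within groups was 0.19, against a median of 0.18 over all tested probe sets, and 55.7% of them had a smaller one. Of the variance of Opn3 over the 10 arrays, the group means accounted for 96.1% on the log2 scale. The choice of the gene on this contrast favours a high share, so nothing is read from it. In the dehydrated group replicates 4 and 5 were low and close to each other, and replicate 3 was high. In the control group replicate 1 was high. Dehydrated replicate 2, which had the lowest Avp and Oxt of its group, was at the group's median by Opn3 signal. Control replicate 5, whose chip number is apart from the rest, was second lowest in its group. Without both arrays the log2 difference was 1.64.

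Avp, the vasopressin gene, had signals of 5164, 3931, 5030, 5698 and 4960 in dehydrated replicates 1 to 5. In control replicates 1 to 5 it had 3583, 2853, 2953, 3934 and 4334. Dehydrated replicate 2 lay within the control range, and the log2 difference of 0.50 ± 0.11 had a limma adjusted p of 0.0504. It passed in 7 alternatives, namely with array weights (adjusted p = 0.0128), without control replicate 5 (0.0132), without dehydrated replicate 2 (0.0172), without both (0.00153), at both larger pseudocounts (0.0467 and 0.0443) and with a 60th percentile filter (0.0473). In the others it did not pass, and the adjusted p reached 0.169 without the variance trend. Oxt, the oxytocin gene, had signals of 5181, 3953, 4580, 5499 and 5091 in dehydrated replicates 1 to 5. In control replicates 1 to 5 it had 3875, 4000.2, 3631, 4317 and 4626, and the groups overlapped (log2 0.24 ± 0.08, adjusted p = 0.218). Under quantile normalization the Oxt difference fell to 0.09 (limma adjusted p = 0.428) and that of Avp to 0.34 (0.129). Without both dehydrated replicate 2 and control replicate 5 Oxt too passed (adjusted p = 0.00991), and in no other alternative did it pass. Those arrays held the lowest dehydrated and the highest control signal of both genes. Leaving out either or both therefore widens the difference by construction, and a pass there is no separate support for a rise. Both genes were among the brightest, since the highest signal on an array ran from 4558 to 6284, and how linear the scanner was at such signals is unknown.

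The question of whether pools with more Opn3 also had more Avp or Oxt can be put only within groups, because the Opn3 groups do not overlap. A correlation over the 10 arrays as they stand would repeat the group difference and is not given. Instead each log2 value was taken as its deviation from its own group mean, and Pearson's r was set against all 14400 rearrangements of arrays within groups, a two-sided exact permutation test. There were 12 partner genes in this family, and p was adjusted over them by Benjamini-Hochberg. With Avp, r was -0.15 (exact permutation p = 0.691, adjusted p = 0.921, n = 10), and Spearman's rho was -0.10 (exact permutation p = 0.796, adjusted p = 0.868). Without the 2 arrays farthest from the median of Avp, r was -0.39. With Oxt, r was -0.54 (exact permutation p = 0.131, adjusted p = 0.314, n = 10), rho was -0.49 (exact permutation p = 0.203, adjusted p = 0.405), and r was -0.68 without the 2 farthest arrays. Neither relation passed. The direction for Avp was not stable, with r of 0.26 under quantile normalization and 0.01 without control replicate 5, while for Oxt r stayed negative, from -0.62 to -0.15 over the 15 alternatives.

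By array, Opn3 and Avp lay on the same side of their group means in 4 of the 10 pools and on opposite sides in 6, and Opn3 and Oxt in 2 and 8. In dehydrated replicate 1 the 3 genes were above their means, Opn3 by 0.09, Avp by 0.07 and Oxt by 0.10, and in control replicate 2 they were below, with deviations of -0.17, -0.29 and -0.03. In dehydrated replicate 3, with the most Opn3, Avp was 0.03 above and Oxt 0.08 below. In dehydrated replicate 4 Opn3 was 0.20 below its group mean, while Avp was 0.21 and Oxt 0.19 above theirs. In dehydrated replicate 2 Opn3 was 0.08 above, with Avp 0.32 and Oxt 0.29 below. Control replicate 5 had the highest Avp and Oxt of its group, at 0.31 and 0.18 above the mean, and the second lowest Opn3, at 0.14 below. Control replicate 1 had the highest Opn3 of its group, 0.31 above, with Avp 0.04 above and Oxt 0.07 below. The pool with the most Avp and Oxt in each group was not the pool with the most Opn3.

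None of the 12 partners passed after adjustment (0 of 12), and 2 had an exact p under 0.05 for r, Crh and Caprin2. For rho these and Sst did. Crh, the corticotropin-releasing hormone gene of the smaller neurons, had r of 0.83 (exact permutation p = 0.00563, adjusted p = 0.0675, n = 10). Its rho was 0.78 (exact permutation p = 0.005, adjusted p = 0.06), and r was 0.62 without control replicate 1 and dehydrated replicate 3, the 2 arrays farthest from the median. Crh signals were 298, 363, 448, 277 and 212 in dehydrated replicates 1 to 5, against 413, 183, 230, 346 and 239 in control replicates 1 to 5. The groups overlapped widely (log2 0.19 ± 0.20, limma adjusted p = 0.726), so that Crh followed Opn3 in its highest and lowest pools but not between the groups. Over the alternatives its r ran from 0.75 to 0.91, with an adjusted p from 0.0208 to 0.288, and it passed without control replicate 3 and without control replicate 4.

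Caprin2 encodes an RNA-binding protein. Its signals were 880, 754, 889, 695 and 611 in dehydrated replicates 1 to 5, against 237, 189, 196, 249 and 183 in control replicates 1 to 5. Within groups r was 0.77 (exact permutation p = 0.0207, adjusted p = 0.124, n = 10) and rho 0.73 (exact permutation p = 0.0317, adjusted p = 0.127). Without the 2 farthest arrays r was 0.87, and over the alternatives it ran from 0.71 to 0.90 (adjusted p from 0.0125 to 0.298, passing without control replicate 4). Both genes were highest in dehydrated replicate 3 and lowest in dehydrated replicate 5 of that group. The control pools did not match in this way. There Caprin2 was highest in replicate 4 and lowest in replicate 5, and Opn3 was highest in replicate 1 and lowest in replicate 2.

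The other 8 partners had a wide range of r. Sst, the somatostatin gene, had 0.63 (exact permutation p = 0.0681, adjusted p = 0.273, rho 0.72 with exact permutation p = 0.0189 and adjusted p = 0.113, and r of 0.19 without the 2 farthest arrays), and passed without control replicate 5 (adjusted p = 0.0375). Cck, the cholecystokinin gene, had 0.57 (exact permutation p = 0.105, adjusted p = 0.314), and Vgf, a secreted neuropeptide precursor, had -0.48 (exact permutation p = 0.194, adjusted p = 0.389). The remaining values were 0.42 for Tnfaip6, 0.24 for Giot1, 0.06 for the dynorphin gene Pdyn, 0.05 for the transcription factor gene Creb3l1 and -0.03 for Trh, with exact permutation p from 0.260 to 0.945. Without the 2 farthest arrays of each gene, r was 0.69 for Tnfaip6, -0.14 for Giot1 and -0.23 for Pdyn. It was -0.90 for Creb3l1, 0.03 for Trh, 0.24 for Cck and -0.53 for Vgf. For Creb3l1 those arrays were control replicate 5 and dehydrated replicate 4. Pdyn and Vgf both rose with dehydration, to 740.3 ± 62.4 and 972 ± 54.5 in dehydrated pools against 423 ± 69.3 and 631 ± 44.4 in control pools (limma adjusted p = 5.7e-04 and 6.2e-05). Within groups neither passed against Opn3.

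**Figure D2:**
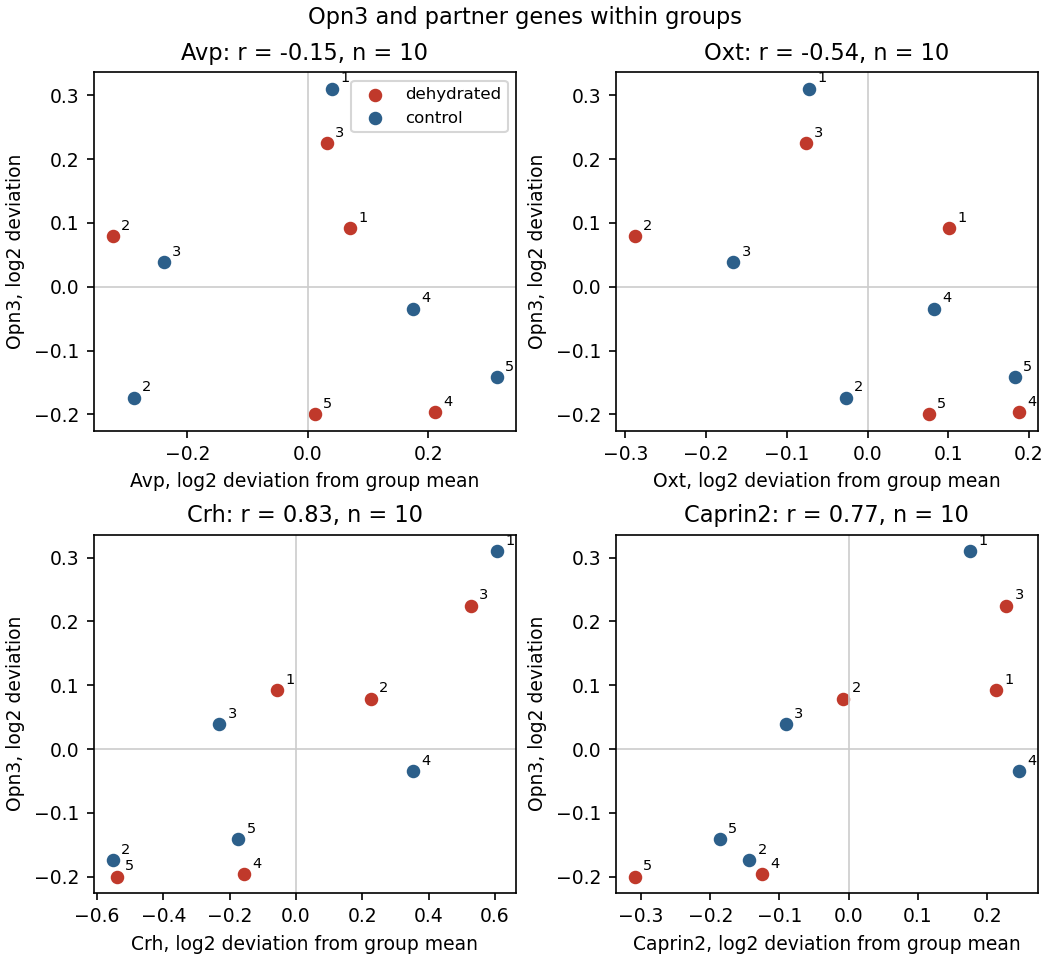
Log2 deviation of Opn3 from its group mean (vertical) against that of Avp, Oxt, Crh and Caprin2 (horizontal), each point 1 array with its replicate number, dehydrated in red and control in blue. Pearson's r over 10 arrays stands above each panel, at -0.15 for Avp, -0.54 for Oxt, 0.83 for Crh and 0.77 for Caprin2, none of them past an adjusted p of 0.05.

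Genes with profiles like that of Opn3 were ranked in 2 ways among 13593 other tested probe sets with 1 symbol, as a description without p. The first measure was the root mean square distance between log2 profiles over the 10 arrays, each centred on its own mean, and it takes in the group difference. The 5 nearest genes were Caprin2 (0.145), Giot1 (0.264), Camk2g (0.355), Atp6ap1l (0.367) and Tnfaip6 (0.396). In these 5 genes the groups did not overlap, as the ranking on a profile with a group difference favours. Camk2g, a subunit of a calcium- and calmodulin-dependent kinase, was near through 1 probe set, and another probe set of the gene differed by -0.19 (limma adjusted p = 0.483).

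The second measure was r of the deviations from group means, which leaves the group difference out. Over all tested probe sets this r had a median of -0.01, with 95% of values between -0.69 and 0.68, so high values arise by selection among so many. The highest were Ralgapb (0.95), Prlr (0.94), Mylip (0.94), Lrrc7 (0.93) and Foxp4 (0.93). Prlr, the prolactin receptor gene, had signals of 102, 114, 157, 83.7 and 74.6 in dehydrated replicates 1 to 5, against 128, 51.9, 89.0, 86.7 and 68.1 in control replicates 1 to 5. As with Opn3, dehydrated replicate 3 and control replicate 1 were the highest of their groups. Unlike Opn3 it overlapped between groups (log2 0.32 ± 0.21, adjusted p = 0.535). Another probe set of Prlr had r of -0.02, and another of Ralgapb had -0.57, so for both genes the likeness was that of 1 probe set. None of these 5 genes passed in the comparison of groups (0 of 5 in limma, and 0 at an unadjusted p under 0.05), with log2 differences from -0.17 to 0.32 and adjusted p from 0.412 to 0.896.

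**Figure D3:**
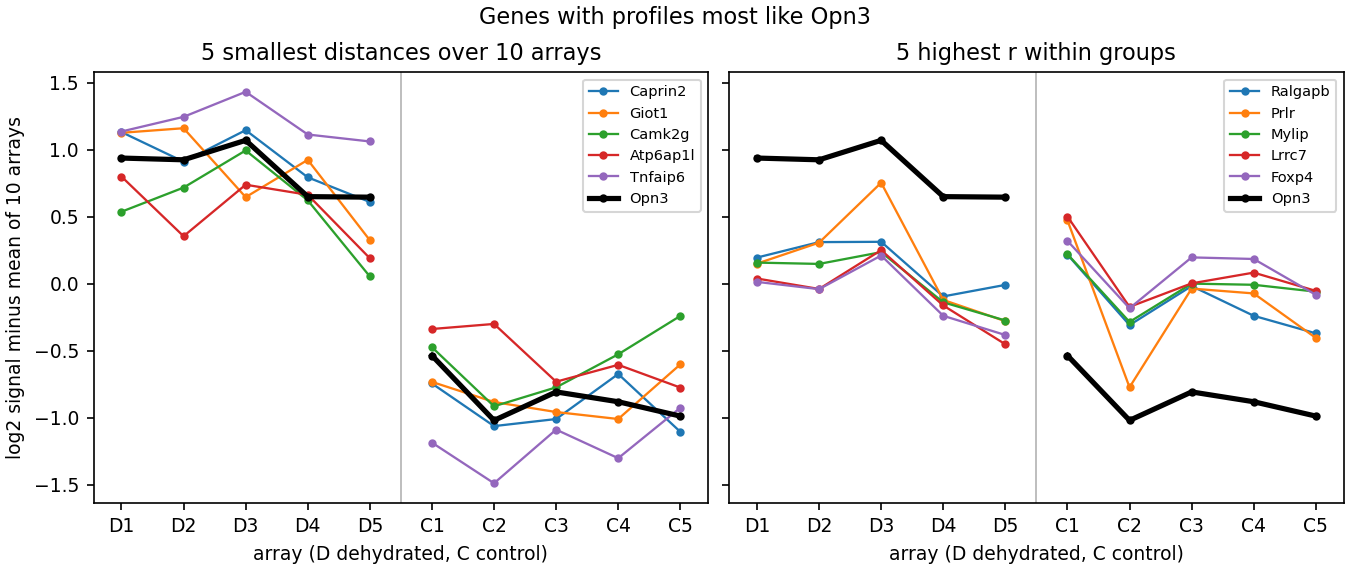
Log2 signal minus the mean over the 10 arrays for Opn3 (black) and the genes most like it, by distance over the 10 arrays (left) and by r within groups (right). D marks dehydrated and C control replicates, and lines join the arrays of a gene only to guide the eye. The genes on the left share the step between groups, while those on the right follow Opn3 within each group with little or no step.

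No other listed opsin passed the signal filter. Of 8 such genes, 4 had a probe set with 1 symbol, and the means of these 4 lay below the filter. Opn4, the melanopsin gene of retinal ganglion cells, had signals of 23.7, 23.6, 29.1, 21.8 and 15.9 in dehydrated pools, against 16.0, 12.3, 20.7, 20.1 and 16.8 in control pools. They overlapped, and without the filter the log2 difference was 0.34 ± 0.20 (limma adjusted p = 0.575). Opn1sw and Opn1mw, the cone opsins, differed by 0.02 ± 0.32 and 0.14 ± 0.39 (adjusted p = 0.991 and 0.932). Rgr, a retinal-binding opsin of the pigment epithelium, differed by 0.50 ± 0.25 (adjusted p = 0.516), with signals of 1.1 to 8.9 in dehydrated and 1.3 to 1.5 in control pools.

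Genes that handle vitamin A, the source of the opsin's aldehyde, were spread to both sides. Of 28 listed, 25 had a probe set and 14 were tested, of which none passed (0 higher, 0 lower). Over all tested probe sets 0.58% passed. An unadjusted p under 0.05 was reached by 5 of the 14, where 12.7% of all tested probe sets reached it. The median log2 difference was -0.07, against 0.00 over all tested probe sets, with 7 positive and 7 negative. Rlbp1, which encodes the retinaldehyde-binding protein of glia, had signals of 290.2, 287, 280, 331 and 368 in dehydrated pools. In control pools it had 393, 331, 452, 429 and 375, so that the groups overlapped (log2 -0.34 ± 0.09, adjusted p = 0.116). Aldh1a1, which oxidises retinal to retinoic acid, differed by -0.39 ± 0.17 (adjusted p = 0.340). The retinol dehydrogenase gene Rdh13 differed by 0.47 ± 0.19 and the retinoic acid-binding protein gene Crabp1 by 0.42 ± 0.19 (adjusted p = 0.306 and 0.368).

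Among the proteins that opsins act on, the G protein alpha subunits gave 7 tested genes. None of them passed (0), where 0.58% of all tested probe sets did. Before adjustment 1 of the 7 had p under 0.05, against 12.7% of all tested probe sets. That gene was Gnas, the stimulatory subunit, with means of 4817 ± 520 in dehydrated and 4240 ± 283 in control pools (log2 0.18 ± 0.07, adjusted p = 0.284). Of its other probe sets, 2 were tested and differed by 0.30 and 0.55 without passing. Of the inhibitory subunits Gnai2 differed by -0.15 ± 0.08 and Gnai1 by -0.22 ± 0.14 (adjusted p = 0.429 and 0.526), and Gnal, an olfactory-type stimulatory subunit, by 0.17 ± 0.12 (0.572). The median of the 7 was 0.03. Of the arrestins, receptor kinases and other genes that end opsin signalling, 6 were tested and 5 were negative, with a median of -0.14. None passed (0, against 0.58%, and 0 at an unadjusted p under 0.05, against 12.7% of all tested probe sets). Arrb2, an arrestin, differed by -0.17 ± 0.10 (adjusted p = 0.488), and the receptor kinases Grk4 and Grk2 by -0.26 ± 0.19 and -0.19 ± 0.16. Rgs9, which speeds the end of G protein signalling, differed by -0.11 ± 0.14.

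Of genes that make, break down or respond to cyclic AMP, 21 were tested and none passed (0 higher, 0 lower), with a median of 0.03. Over all tested probe sets 0.58% passed. Before adjustment 4 of the 21 had p under 0.05, against 12.7% of all tested probe sets. The lowest p was that of Pde4a, a phosphodiesterase, with signals of 18.5, 31.1, 22.2, 39.2 and 29.8 in dehydrated pools, against 38.5, 53.0, 57.0, 40.9 and 54.2 in control pools (log2 -0.74 ± 0.18, adjusted p = 0.0797). Only dehydrated replicate 4 reached the control range. Adcy8, an adenylyl cyclase that responds to calcium, had 59.2, 65.9, 47.8, 59.4 and 60.6 in dehydrated pools, against 73.6, 77.0, 75.3, 90.5 and 78.2 in control pools. The Adcy8 groups did not overlap, yet the difference of -0.41 ± 0.11 had an adjusted p of 0.103. Every dehydrated value lay below every control value in 1.42% of all tested probe sets. Prkar1a, a regulatory subunit of the cyclic AMP-dependent kinase, differed by 0.17 ± 0.06 (adjusted p = 0.224), while its other probe sets differed by -0.04 and 0.33. Pde8a differed by 0.32 ± 0.14 (adjusted p = 0.368).

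Of the melanocortin and Kir7.1 genes, Mc4r and its accessory protein gene Mrap2 were tested. Mc4r had signals of 46.5, 41.9, 55.2, 59.0 and 46.6 in dehydrated pools, against 44.2, 39.8, 38.3, 39.1 and 25.9 in control pools (log2 0.39 ± 0.15, adjusted p = 0.285). Mrap2 had 344 ± 15.1 in dehydrated and 306 ± 32.8 in control pools (log2 0.17 ± 0.08, adjusted p = 0.356). Both had an unadjusted p under 0.05, which 12.7% of all tested probe sets reached, and in both the groups overlapped. Kcnj13 and Pomc lay below the filter, with mean signals of 13.7 and 3.76 in dehydrated and 10.6 and 1.32 in control pools.

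Over these lists together, 50 genes other than Opn3 were tested and none passed in limma (0), where 0.58% of all tested probe sets did. None passed in the 20 other settings run either. At so small a share a count of 0 is not read as a result about these genes. Without adjustment 12 of the 50 (24.0%) had p under 0.05, against 12.7% of all tested probe sets, and the count was 7 to 12 over the settings that test the same 50. No difference between Opn3 and these genes was tested, as Opn3 was chosen on this contrast.

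**Figure D4:**
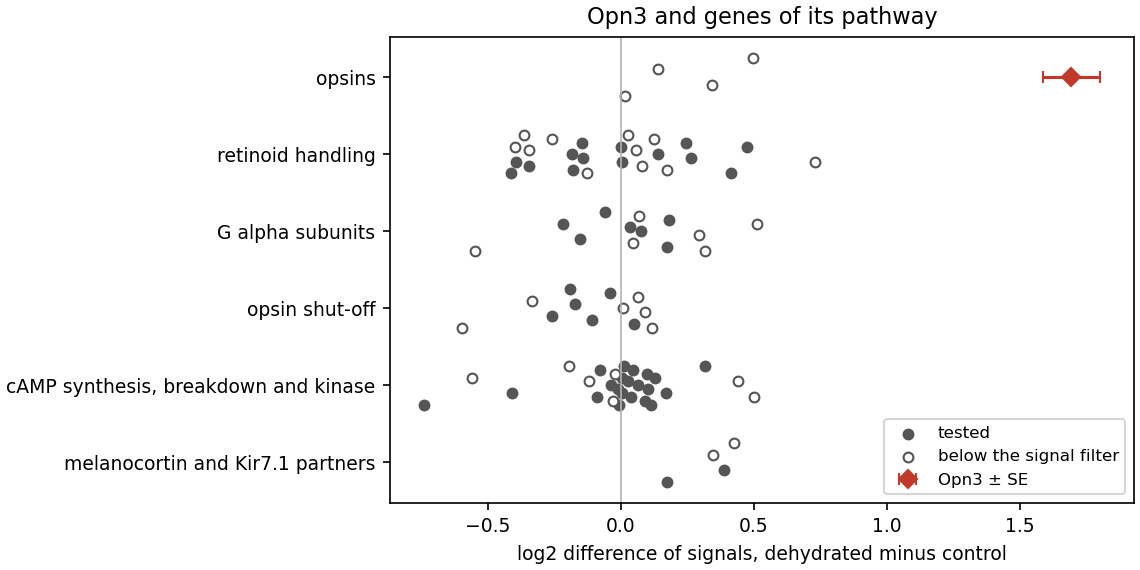
Log2 difference of signals, dehydrated minus control, for Opn3 (red diamond, ± SE) and the genes of its pathway (1 point a gene, vertical place within a row without meaning). Filled points were tested and open points lay below the signal filter. Opn3 lies at 1.69, and the tested genes lie between -0.74 and 0.47.

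Markers of the nucleus were present on the arrays. Sim1, a transcription factor of paraventricular neurons, had means of 79.2 in dehydrated and 62.1 in control pools, while the probe sets of Otp and Pou3f2, other factors of these neurons, lay below the filter. Hcrt, which lateral hypothalamic neurons make, had signals from 235 to 1027 in dehydrated and from 609 to 2508 in control pools (limma adjusted p = 0.233). It was 1 of 5 negative members among the 7 tested neighbouring region markers. The 2 positive members were nearly level, Pmch with means of 3958 in dehydrated and 3867 in control pools, and Npy with 251 and 243. Of 13 tested paraventricular markers 2 rose in limma, Pdyn and Vgf, where 0.397% of all tested probe sets rose. Of the 13, 6 had an unadjusted p under 0.05, where 12.7% of all tested probe sets did. Of the same 13, 12 were positive, with a median of 0.24, against -0.005 over all tested probe sets. Of 11 tested oligodendrocyte markers 1 fell, Ermn (log2 -0.63 ± 0.12, limma adjusted p = 0.0255), against 0.183% of all tested probe sets, and the 11 were negative, with a median of -0.28. An unadjusted p under 0.05 was reached by 8 of the 11, where 12.7% of all tested probe sets reached it. The call of Ermn was lost without dehydrated replicate 3 or 4 or control replicate 2 (adjusted p up to 0.0792), without the filter (0.064) and without the variance trend (0.0942). Its other tested probe set differed by -0.30 (adjusted p = 0.397). The summed signal of the oligodendrocyte list ran from 7621 to 7997 in dehydrated and from 8259 to 10077 in control pools, without overlap, and no member was at 0. The hemoglobin gene Hbb fell as well (log2 -0.67 ± 0.13, adjusted p = 0.0305), a call lost in 8 alternatives (without dehydrated replicate 1, 3 or 4, control replicate 1, 2 or 4, the filter or the variance trend), and the blood cell sum ran from 304 to 569 in dehydrated and from 562 to 769 in control pools. None passed of 5 microglial, 7 endothelial and 7 neighbouring region markers (0 of 19 in limma, against 0.58% of all tested probe sets). At an unadjusted p under 0.05 these lists gave 1, 2 and 4, against the same 12.7%. Their summed signals overlapped between the groups. The part of these cells in the Opn3 difference was not tested.

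The sum of astrocyte markers ran opposite to Opn3 within groups, in a relation that passed under some settings and not under others. The summed signal of the 8 listed genes was 13522, 13932, 13897, 14844 and 15107 in dehydrated replicates 1 to 5, against 13620, 14693, 14136, 15040 and 15240 in control replicates 1 to 5. The groups overlapped, and no member was at 0. None of the 8 genes passed in the comparison of groups (0 in limma, against 0.58% of all tested probe sets). An unadjusted p under 0.05 was reached by 3 of the 8, against 12.7% of all tested probe sets. In both groups the pools with more astrocyte signal tended to have less Opn3. Over the deviations from group means r was -0.88 (exact permutation p = 0.00507, n = 10) and rho -0.88 (exact permutation p = 0.00299). The adjusted p over the 6 marker lists was 0.0304 for r and 0.0179 for rho, and r was -0.74 without control replicate 1 and dehydrated replicate 5, the arrays farthest from the median. That adjustment left out the 12 partner genes, a separate family against the same Opn3 deviations. No adjustment over both families together was made. By single genes the 8 members had negative r with Opn3, from -0.71 for Aldoc to -0.01 for the water channel gene Aqp4. This relation was looked at after the others had been seen. It no longer passed under median centring (r = -0.66, adjusted p = 0.295), under quantile normalization (r = -0.71, adjusted p = 0.216) or with 5 of the 10 arrays left out in turn, dehydrated replicates 2, 4 and 5 and control replicates 1 and 3, where the adjusted p reached 0.179 without control replicate 1.

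The other marker lists did not pass against Opn3 within groups. Markers of neighbouring regions had r of -0.70 (exact permutation p = 0.0362, adjusted p = 0.109, rho -0.78, n = 10), and r was -0.98 without dehydrated replicate 3 and control replicate 5. Its adjusted p passed without control replicate 5 (0.00208) and without that array and dehydrated replicate 2 (0.0104), and in none of the other 12 alternatives (0), where it reached 0.496. This sum of linear signals was dominated by its brightest members, Pmch and Hcrt, with control means of 3867 and 1586. Their own r with Opn3 was -0.74 and -0.62. By single genes 6 of the 7 tested members had a negative r, with a median of -0.45. The sum of oligodendrocyte markers had r of -0.39, that of endothelial markers -0.18, of microglial markers 0.12 and of the 2 blood cell markers 0.28, with exact permutation p from 0.338 to 0.749. The share of other cells and of neighbouring tissue in these relations was not tested.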

How the data were processed

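Signal intensities per probe set and array were deposited by the authors on a linear scale. The submitters' processing notes name GCOS 1.2, and for the signal algorithm, background step and detection calls nothing is given in the sources used here. After trimming 2% at each end the mean was 100.0 on each of the 10 arrays, and medians ran from 36.4 to 39.1. The number of arrays limits the precision. Replicate numbers are names given within each group in sample order, since the labels give none. By the sample titles, chips of a group carry consecutive numbers, except that control replicate 5 is far from the rest. Any effect of chip order cannot be told apart from the treatment.

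Of 31099 probe sets 57 controls were left out. Of the other 31042, 20826 had 1 symbol, 436 several and 9780 none listed. Symbols were updated by Entrez identifier in the GRCr8 gene table. Signals were taken as log2(signal + 3.72), 0.1 of the median array median. Probe sets with a mean signal at or above the 40th percentile (24.1) were tested, 18629 in all, by lmFit and eBayes with trend in limma 3.58.1 (R 4.3.3). Tests were two-sided and p was adjusted by Benjamini-Hochberg, with 0.05 as the threshold. The probe set with the highest mean stood for a gene. Within-group relations used exact permutation in Python 3.11.15. Both steps were tested on simulated data. As alternatives, arrays were centred on the median or quantile normalized, pseudocount and filter were changed, limma was run without trend, robustly or with array weights, and each array was left out. The gene, lists and tests were chosen with earlier results of these data known, and the relations with marker sums were added after the data had been seen. Named genes were the Opn3, Avp and Oxt probe sets, the opsins, the called and up to 4 lowest-p members of each list, neighbours of Opn3 and the 5 genes most like it by each measure. Correlation partners beyond these, Sim1, Ptges, Pmch, Npy and the list members at a range's end were named after their values were seen or for the family of 12. Promoter windows are from RefSeq, build GRCr8.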

Additional observations from a re-analysis of the deposited data

Results flagged for a closer look

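In 122 groups of 5 pools examined (61 named probe sets in 2 groups), 4 had a sample far from the others, where chance alone flags about 1 in 20. None of them was of Opn3, Avp or Oxt (0). Adcy8 was 90.5 in control replicate 4, where the other control pools lay between 73.6 and 78.2. Aif1, a microglial gene, was 87.6 in control replicate 5, and the other control pools lay between 112 and 114. Cldn5, a tight junction gene of endothelium, was 433 in control replicate 5, with the others between 267 and 307. Hdc, a gene of histamine neurons, was 22.2 in dehydrated replicate 3, with the others between 30.5 and 31.5.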

How the results depend on the processing

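No paired analysis was run, since each pool came from its own animals per the series design and the labels name no pairs. The numbers 1 to 5 used here follow the order of the samples within each group and pair no samples. The Opn3 log2 difference of 1.69 stayed within the spread between pools under median centring, quantile normalization, a pseudocount 4 times as large, the median of 5 pools (1.81) and without each array (1.64 to 1.77), and moved to 1.23 at a pseudocount of 64. The relation of Opn3 with Avp within groups (r = -0.15) reversed to 0.26 under quantile normalization, to 0.01 without control replicate 5 and to 0.16 without dehydrated replicate 2 and control replicate 5, with a range of -0.40 to 0.01 over single arrays left out. That with Oxt ran from -0.62 to -0.44 over single arrays and was -0.15 under quantile normalization. The relation with astrocyte markers (r = -0.88) did not pass under median centring (-0.66), quantile normalization (-0.71) and without both of those arrays (-0.87). It ran from -0.91 to -0.82 over single arrays and passed in only 5 of those 10 cases (adjusted p up to 0.179, exact permutation). The count of changed probe sets, 108, was 64 without a filter, 45 without the variance trend, 201 with array weights, 289 without both arrays and 46 to 148 without each array. Single genes reversed in 3 cases, none of them called: Rgs9 (-0.18 to 0.023 over single arrays left out, positive without dehydrated replicate 5) and Mylip (-0.013 to 0.127, negative without dehydrated replicate 3 or control replicate 2). Other calls of named genes were lost in 13 cases, those of Ermn and Hbb, and gained in 27. Opn3, Avp and Oxt have 1 probe set each, so averages over several probe sets of a gene were not run. Leaving out both arrays and the relations with marker sums were chosen after seeing the data. The cause of these changes was not tested. Arrays give no count depth, and the other opsins, below the signal filter, were compared between groups only in the fit without it.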
